A study of Mus musculus with 12 samples.

Results

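In all, 9 genes of the PPAR-alpha pathway were followed in the livers and the duodenum of mice treated with corticosterone (CORT) for 8 weeks: the receptor gene Ppara and 8 of its classical targets, Cyp4a10, Cyp4a14, Cyp4a31, Cyp4a32, Ehhadh, Acot1, Acot2 and Vnn1. They were chosen by gene symbol, with earlier results of these data known, and all 9 were found among the 55416 genes listed in each tissue. Their counts are therefore set beside the shares of all genes as descriptions only. Their identifiers are ENSMUSG00000022383 (Ppara), ENSMUSG00000066072 (Cyp4a10), ENSMUSG00000028715 (Cyp4a14), ENSMUSG00000028712 (Cyp4a31), ENSMUSG00000063929 (Cyp4a32), ENSMUSG00000022853 (Ehhadh), ENSMUSG00000072949 (Acot1), ENSMUSG00000021226 (Acot2) and ENSMUSG00000037440 (Vnn1).

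The libraries came from male C57BL6/J mice that were 8 weeks old at the start. CORT-treated mice received CORT, the main glucocorticoid of rodents, at 40 mg/kg by daily subcutaneous injection, and control mice (Veh) received the DMSO, Tween-80 and water vehicle by the same route. RNA-seq was made from 3 Veh and 3 CORT libraries per tissue, 12 in all, and whether liver and duodenum libraries of the same number came from the same mouse was not stated. No transgene or cell type marker was used, so each value is an average over all cells of a piece of tissue, and more cells of a type and more RNA per cell cannot be told apart.

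PPAR-alpha is a nuclear receptor that fatty acids bind and activate. With its partner RXR it binds DNA elements near its target genes, and in liver it is best known for switching on fatty acid oxidation during fasting. The Cyp4a enzymes hydroxylate fatty acids at the end of the chain, Ehhadh carries out the middle steps of peroxisomal beta-oxidation, Acot1 (cytosolic) and Acot2 (mitochondrial) split acyl-CoAs into fatty acid and coenzyme A, and Vnn1 is a membrane pantetheinase that releases cysteamine. Intestinal enterocytes also express the receptor and take up dietary fat. The question for these genes was whether, and in which tissue, CORT changed their level.

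The Cyp4a genes and the Acot genes are close copies, which matters for reading their values. In the GENCODE M21 coding sequences (GRCm38), Cyp4a10 and Cyp4a32 were 97.2% identical, Cyp4a10 and Cyp4a31 96.6%, Cyp4a31 and Cyp4a32 96.0%, and Acot1 and Acot2 95.5% over their aligned bases. Cyp4a14 was only 76.1% identical to Cyp4a10. In RefSeq's gene order (GRCm38.p6), Cyp4a14 and Cyp4a10 were direct neighbours, as were Acot2 and Acot1, and only 1 pseudogene lay between Cyp4a10 and Cyp4a31 and 1 between Cyp4a31 and Cyp4a32. The stretch of 90 coding bases below is the one without gaps in which the 3 Cyp4a copies differ most, so it shows where reads can be told apart and is less alike than the sequence as a whole. Over their whole coding sequences of 1530 bases, Cyp4a10 and Cyp4a32 differed at 43 positions, Cyp4a10 and Cyp4a31 at 52 and Cyp4a31 and Cyp4a32 at 61. The stretch starts at coding base 190 and ends at base 279, counted from the first base of the start codon, and capitals mark the 13 positions at which the 3 copies are not all the same.
Cyp4a10: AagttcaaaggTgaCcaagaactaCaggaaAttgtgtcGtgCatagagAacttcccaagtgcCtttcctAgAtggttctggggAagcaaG
Cyp4a31: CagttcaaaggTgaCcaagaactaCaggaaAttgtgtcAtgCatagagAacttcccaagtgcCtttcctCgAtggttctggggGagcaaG
Cyp4a32: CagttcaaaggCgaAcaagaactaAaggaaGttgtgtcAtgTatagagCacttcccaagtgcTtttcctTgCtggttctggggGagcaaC

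The most different stretch is also shown for the thioesterases, which differed at 56 positions among the bases aligned in both. It lies at coding bases 799 to 888 of Acot1 and 922 to 1011 of Acot2, with capitals at the 14 positions that differ.
Acot1: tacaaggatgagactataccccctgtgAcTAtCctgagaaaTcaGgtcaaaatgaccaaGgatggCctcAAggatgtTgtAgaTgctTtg
Acot2: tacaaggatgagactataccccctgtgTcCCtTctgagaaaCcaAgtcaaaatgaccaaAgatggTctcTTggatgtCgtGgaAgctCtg

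A read or its mate must cover a differing letter for the pair to be assigned to 1 copy. Windows were taken from the longest annotated coding transcript of each gene, without regard to mates, so they do not give the share of undecided read pairs. Of the 50-base windows, 30.5% in Cyp4a10, 21.8% in Cyp4a31, 46.8% in Cyp4a32, 33.6% in Acot1 and 27.7% in Acot2 also occurred in another gene. For windows of 150 bases, the length of 1 read, these shares were 4.34%, 4.19%, 7.97%, 12.4% and 10.2%. Cyp4a14 shared 0.245% of its 50-base windows, and Ppara, Ehhadh and Vnn1 shared 0% at either length. The individual levels of Cyp4a10, Cyp4a31, Cyp4a32, Acot1 and Acot2 are therefore uncertain where the authors' quantification divided such reads, and summed values are given beside them.

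Levels are TPM (a relative transcript abundance corrected for transcript length and scaled to the same total in every library), so genes can be compared within a library. How many reads a value rests on is not known, so no counting error or detection limit can be given, and the precision rests on the 3 libraries per group. Differences are on the log2(TPM + 1) scale, which understates the change of low genes. They were tested with limma over all genes that averaged 1 TPM or more in the Veh or the CORT group, with Benjamini-Hochberg adjustment, and a gene was called changed at an adjusted p of at most 0.05 with a fold change over 1.5. An exact permutation test of 3 against 3 samples cannot give a two-sided p below 0.1. The labels number the 3 samples of a group as biological replicates, and nothing further states how they were drawn. The p-values set each difference against the spread between these samples.

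The libraries carried their labelled tissues and treatment. Fkbp5, a direct glucocorticoid receptor target, was at 7.14 to 19.5 TPM in liver Veh and 221 to 273 TPM in liver CORT, and at 8.68 to 23.3 TPM in intestine Veh and 252 to 379 TPM in intestine CORT. The summed level of 10 hepatocyte markers was 99320 to 128800 TPM in liver against 393 to 437 TPM in intestine. That of 14 enterocyte markers was 10330 to 14860 TPM in intestine against 756 to 944 TPM in liver. Apob alone was at 611 to 807 TPM in liver, so not all of these markers are particular to enterocytes. Intestine Veh2 and Veh3 stood apart: their summed pancreatic acinar markers were at 54170 and 48780 TPM, against 7938 TPM in Veh1 and 8497 to 10320 TPM in the CORT libraries. Without Zg16 and Reg1, which the intestine makes itself, the sums were 46470 and 37800 TPM against 222 TPM in Veh1 and 210 to 440 TPM in CORT. In liver, 24 of these 34 markers were at 0 in every library.

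In the liver, CORT-treated mice had far more Cyp4a14 and Cyp4a10 RNA than Veh mice, and their mean Acot1 and Cyp4a32 levels were 11.6-fold and 3.18-fold higher. Of the 9 genes, all 9 were tested, 4 were called higher and 0 lower, while 4.91% of the 11699 genes tested were called higher and 2.01% lower. Every one of the 9 had a higher mean in CORT, with a median difference of 1.79 against 0.08 for all genes tested. The CORT values lay wholly above the Veh values for 6 of the 9, against 20.6% of all genes tested. Cyp4a10, Cyp4a31 and Cyp4a32 share sequence, as do Acot1 and Acot2, so these counts are not of 9 independent genes. For the count of 0 lower genes, limma also gave 0 lower and 7 higher genes at an unadjusted p under 0.05. With the fold limit kept, an unadjusted p called 7 of the 9, against 1808 of all 11699 genes in either direction.

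Cyp4a14 was at 0.80, 8.15 and 1.86 TPM in Veh1, Veh2 and Veh3 and at 1284, 815 and 123 TPM in CORT1, CORT2 and CORT3. The groups did not overlap, and the lowest CORT library was far above the highest Veh library. The means were 3.60 ± 3.97 TPM in Veh and 741 ± 584 TPM in CORT (SD, n = 3), a ratio of 206, and the log2 difference was 7.13 (SE 0.94, limma adjusted p = 0.00922). The Veh level was low and variable, so the size of the ratio is poorly fixed, and leaving out 1 library at a time gave log2 differences of 6.46 to 8.15, called each time.

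Cyp4a10 stood at 14.7, 10.4 and 16.3 TPM in the Veh livers and at 806, 550 and 133 TPM in CORT1, CORT2 and CORT3. Its Veh values were close together, and its CORT values were widely spread but did not reach the Veh range. The mean rose from 13.8 ± 3.05 to 496 ± 340 TPM (SD, n = 3), 35.9-fold, with a log2 difference of 4.74 (SE 0.62, limma adjusted p = 0.00892). Leaving out 1 library at a time gave 4.22 to 5.51, called each time, with the highest value without CORT3.

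Cyp4a32 had 4.05, 6.04 and 6.63 TPM in Veh and 22.5, 19.4 and 11.2 TPM in CORT. The groups were apart and the log2 difference of 1.48 was called (SE 0.28, limma adjusted p = 0.0283), but the call held in only 1 of the 6 fits that left out 1 library, the fit without CORT3. Cyp4a31 had 0.93, 4.05 and 1.58 TPM in Veh and 14.3, 11.3 and 5.27 TPM in CORT. Its groups did not overlap either, yet its log2 difference of 1.85 (SE 0.44, limma adjusted p = 0.0535) missed the threshold, and 2 of the 6 fits without 1 library called it.

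The summed level of Cyp4a10, Cyp4a31 and Cyp4a32, which depends less on how reads were divided among them, was 19.7 to 24.6 TPM in Veh and 149 to 843 TPM in CORT. Fitted as 1 gene, the sum differed by 4.22 (SE 0.58, limma adjusted p = 0.0104). Cyp4a10 made up 50.8% to 74.7% of the sum in Veh and 89.0% to 95.6% in CORT. All 4 Cyp4a genes together came to 25.2 ± 4.22 TPM in Veh and 1265 ± 934 TPM in CORT (SD, n = 3). Cyp4a14 was the lowest of the 4 in Veh1, and the highest in CORT1 and CORT2.

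Acot1 was at 3.77, 9.72 and 7.53 TPM in the Veh livers and at 135, 62.3 and 47.5 TPM in the CORT livers. All CORT values were above all Veh values. The mean rose 11.6-fold, from 7.01 ± 3.01 to 81.5 ± 46.7 TPM (SD, n = 3), with a log2 difference of 3.30 (SE 0.44, limma adjusted p = 0.00939) that was called in all 6 fits without 1 library. Acot2 was lower, at 0.57, 1.61 and 0.98 TPM in Veh and 6.56, 7.41 and 1.07 TPM in CORT. CORT3 lay within the Veh range, the groups overlapped, and the log2 difference of 1.34 was not called (SE 0.53, limma adjusted p = 0.171). The sum of both rose from 8.06 ± 3.52 to 86.5 ± 48.6 TPM (SD, n = 3), by 3.21 on the log2 scale (SE 0.44, limma adjusted p = 0.0104), and 85.8% to 97.8% of it was Acot1.

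The receptor itself was at 36.5, 58.2 and 34.1 TPM in the Veh livers and at 84.4, 76.9 and 60.1 TPM in the CORT livers. CORT3 was only just above Veh2, and the log2 difference for Ppara was 0.79 (SE 0.23, limma adjusted p = 0.0894), past the fold limit but not the limit on p. Of the 6 fits without 1 library, only the fit without Veh2 called Ppara, and the differences were 0.65 to 1.03. Ehhadh had 49.5, 80.3 and 71.2 TPM in Veh and 121, 104 and 60.3 TPM in CORT, so the groups overlapped, with a difference of 0.47 (SE 0.29, limma adjusted p = 0.363). Vnn1 was at 6.18, 5.38 and 5.54 TPM in Veh and at 46.0, 44.6 and 4.74 TPM in CORT. CORT1 and CORT2 were thus high and CORT3 was below every Veh library, and the difference of 1.79 was not called (SE 0.76, limma adjusted p = 0.197).

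**Figure D1:**
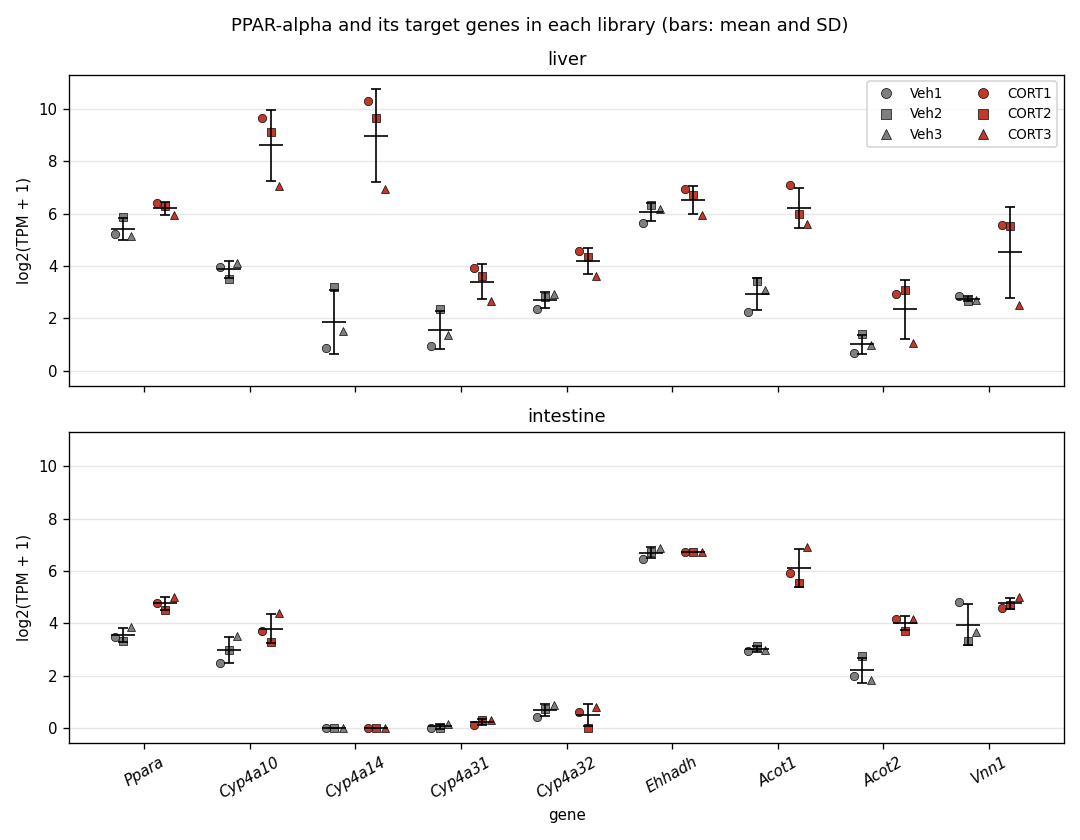
Levels of the 9 genes as log2(TPM + 1) in each library of liver (top) and intestine (bottom), with Veh in grey, CORT in red, symbols for the replicate number and black bars for the mean and SD. In liver the 3 CORT libraries sit above the Veh libraries for Ppara, the 4 Cyp4a genes and Acot1, and CORT3 is the lowest CORT library for all 9 genes, while in intestine Cyp4a14 is at 0 in all 6 libraries.

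The liver library CORT3 had the lowest CORT value for all 9 genes, and CORT1 had the highest for 8, as the plot of levels by library shows. Over all genes tested, CORT3 was the lowest CORT library for 36.6%, and its Fkbp5 level was 221 TPM against 249 and 273 TPM in the others. Tsc22d3, which was also above every Veh liver in each CORT liver, went the other way. It was at 174 TPM in CORT3 against 161 and 82.1 TPM in CORT1 and CORT2. The Veh livers were uneven too. Veh2 was the highest Veh library for 68.7% of all genes tested and for 6 of the 9 genes. Veh1 was the lowest for 49.8% of all genes tested and for 6 of the 9. Without CORT3, 7 of the 9 genes were called higher, against 522 of all 11617 genes tested called in either direction. In that fit Vnn1 differed by 2.79 and Acot2 by 1.99. Without Veh1, Veh2, Veh3, CORT1 or CORT2 instead, 3, 5, 3, 3 and 3 of the 9 genes were called. CORT3 also had the highest summed level of 7 Kupffer cell and macrophage markers, 223 TPM against 73.2 and 121 TPM in CORT1 and CORT2 and 87.8 to 112 TPM in Veh, and limma called 0 of the 7, with 0 at an unadjusted p under 0.05, and no marker was at 0 everywhere. The summed level of 8 pericentral hepatocyte markers was 7719, 8735 and 5829 TPM in CORT1, CORT2 and CORT3 and 3495 to 5467 TPM in Veh, and limma called 0 of the 8, with 3 higher at an unadjusted p under 0.05. That of 8 periportal markers was 2152 to 3284 TPM in CORT and 2346 to 3336 TPM in Veh, with 1 higher and 2 lower at an unadjusted p under 0.05 and 0 of 8 called by limma. The part of either marker group in the values of the 9 genes was not tested. Adipocyte markers summed to 0.21 to 1.37 TPM over the 6 livers, with Adipoq and Lep at 0.

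In the order of levels within the Veh liver, Ehhadh led at 67.0 ± 15.8 TPM and Ppara followed at 42.9 ± 13.3 TPM (SD, n = 3), with overlapping ranges. Cyp4a10 came next and was separate from its neighbours, and Acot1, Vnn1, Cyp4a32, Cyp4a14, Cyp4a31 and Acot2 followed, each overlapping the next. In the CORT liver Cyp4a14 and Cyp4a10 led with overlapping ranges, and every value of both was above every value of Ehhadh (95.0 ± 31.2 TPM, SD, n = 3). Acot1 overlapped both Ehhadh above it and Ppara below it, and Acot2 was last in either group.

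In the intestine, CORT-treated mice had 10.6-fold more Acot1 RNA, 4.09-fold more Acot2 RNA and 2.43-fold more Ppara RNA than Veh mice, as ratios of mean TPM, and the Cyp4a genes were low or at 0. Of the 9 genes, 6 were tested, 3 were called higher and 0 lower, against 1.23% of 13607 genes called higher and 0.919% called lower. The 6 tested genes had a median difference of 1.01, against -0.01 for all genes tested, and 3 of the 6 had CORT values wholly above the Veh values, against 12.2% of all genes tested. Acot1 and Acot2 share sequence, so these counts are not of 6 independent genes. At an unadjusted p under 0.05, limma gave the count of lower genes as 0 and that of higher genes as 3. With the fold limit kept, an unadjusted p called 1395 of all 13607 genes in either direction.

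Acot1 was at 6.57, 7.79 and 6.92 TPM in the Veh intestines and at 59.9, 45.0 and 120 TPM in the CORT intestines. Its Veh values were close to each other and far below every CORT value. The mean rose 10.6-fold, from 7.09 ± 0.63 to 75.1 ± 39.8 TPM (SD, n = 3), a log2 difference of 3.11 (SE 0.33, limma adjusted p = 0.0110). Leaving out 1 library gave 2.71 to 3.41, called each time.

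Acot2 had 2.96, 5.73 and 2.59 TPM in Veh and 17.1, 12.2 and 16.9 TPM in CORT. The groups did not overlap, and the log2 difference was 1.82 (SE 0.26, limma adjusted p = 0.0272). The sum of both thioesterases rose from 10.9 ± 2.31 to 90.4 ± 41.6 TPM (SD, n = 3), by 2.87 on the log2 scale (SE 0.32, limma adjusted p = 0.0122). Acot1 made up 57.6% to 72.8% of the sum in Veh and 77.8% to 87.7% in CORT.

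Ppara was at 10.2, 9.04 and 13.6 TPM in the Veh intestines and at 26.4, 21.8 and 31.4 TPM in the CORT intestines, again without overlap. The mean rose from 10.9 ± 2.36 to 26.5 ± 4.82 TPM (SD, n = 3), a log2 difference of 1.21 (SE 0.19, limma adjusted p = 0.0329). The calls were less firm than the differences: without 1 library, Acot2 differed by 1.65 to 2.10 and was called in 1 of 6 fits, and Ppara differed by 1.08 to 1.36 and was called in 0 of 6.

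The other intestinal genes were not called. Cyp4a10 had 4.60, 6.78 and 10.3 TPM in Veh and 11.9, 8.74 and 20.1 TPM in CORT, with overlapping groups and a difference of 0.81 (SE 0.35, limma adjusted p = 0.266). Vnn1 had 27.4, 9.01 and 11.8 TPM in Veh and 22.7, 25.3 and 31.0 TPM in CORT. Veh1 lay among the CORT values, and the Vnn1 difference was 0.82 (SE 0.37, limma adjusted p = 0.291). Ehhadh was the most abundant of the 9 in the Veh intestine, at 103 ± 14.3 TPM in Veh and 104 ± 0.52 TPM in CORT (SD, n = 3), with a difference of 0.02 (SE 0.14, limma adjusted p = 0.955).

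The Cyp4a genes other than Cyp4a10 did not reach 1 TPM in either intestine group and were not tested. Cyp4a14 was listed at 0 in all 6 libraries. Cyp4a31 was at 0 to 0.12 TPM in Veh and 0.07 to 0.24 TPM in CORT, and Cyp4a32 at 0.33 to 0.84 TPM in Veh and 0 to 0.75 TPM in CORT.

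The Veh libraries with acinar RNA bear on these counts. Of 33 acinar markers tested, limma called 0, and 28 were lower in CORT at an unadjusted p under 0.05. With the 34 acinar genes removed and the libraries rescaled, 3 of the 6 genes were called as before. Without Veh2 and Veh3, which leaves 1 Veh library whose spread is taken from the CORT group and from other genes, 0 of the 6 were called by limma, and only 10 genes of 13576 were called at all. The differences were then 3.20 for Acot1, 2.03 for Acot2, 1.29 for Ppara, 1.31 for Cyp4a10, 0.24 for Ehhadh and -0.07 for Vnn1, and 4 of the 6 were higher at an unadjusted p under 0.05. For Acot1, Acot2 and Ppara, Veh1 was below every CORT library, as were Veh2 and Veh3. The summed level of 5 proximal intestine markers was also higher in Veh2 and Veh3, at 424 and 463 TPM, than in Veh1 at 142 TPM and CORT at 122 to 188 TPM, and its part in the values was not tested.

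**Figure D2:**
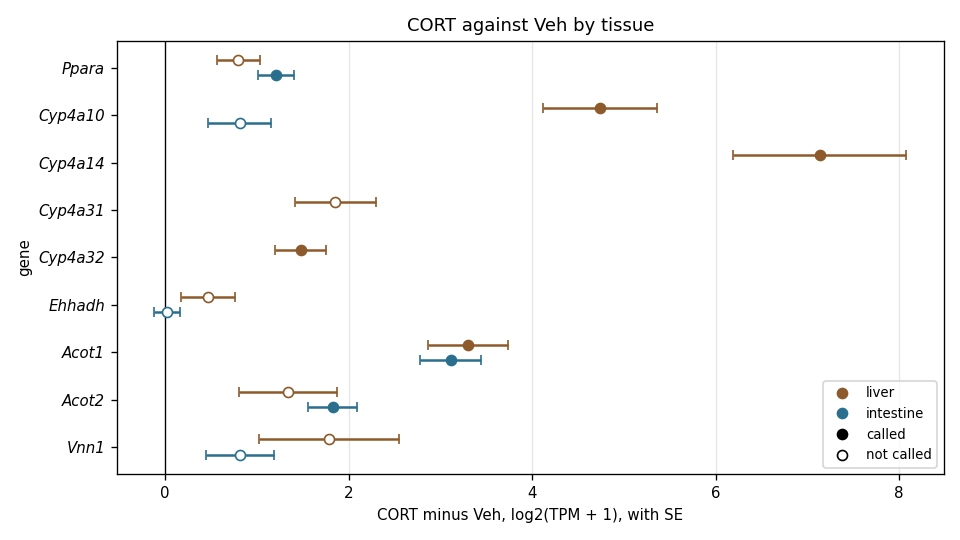
Difference between CORT and Veh on the log2(TPM + 1) scale with its SE, for liver in brown and intestine in blue, with filled points for called genes and open points for genes not called. The largest differences are those of Cyp4a14 (7.13) and Cyp4a10 (4.74) in liver, and Acot1 lies at 3.30 in liver and 3.11 in intestine.

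The effect of CORT was then compared between the tissues in 1 limma fit of the 12 libraries. Of the 9 genes, 3 differed between liver and intestine at an adjusted p of at most 0.05, against 3.61% of the 14806 genes tested. The 3 were the Cyp4a genes Cyp4a14, by 7.13 more in liver (SE 1.07, limma adjusted p = 0.00537), Cyp4a10, by 3.93 (SE 0.79, limma adjusted p = 0.0226), and Cyp4a32, by 1.67 (SE 0.40, limma adjusted p = 0.0470). Cyp4a14 (at 0 throughout) and Cyp4a32 were below 1 TPM in every intestine library and entered the fit only through liver, so their values largely restate the liver difference and the count of 3 is not read against the share of all genes. Of the 6 genes above 1 TPM in both tissues, Cyp4a10 was the only one called. Cyp4a31 differed by 1.68 (SE 0.51, limma adjusted p = 0.108).

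For the other 5 genes no difference between tissues was detected. Acot1 differed by 0.19 (SE 0.61, limma adjusted p = 0.907), Acot2 by -0.48 (SE 0.66), Ppara by -0.42 (SE 0.32), Ehhadh by 0.45 (SE 0.35) and Vnn1 by 0.97 (SE 0.95). These values do not show that the tissues responded alike. In the fits without 1 library the call for Cyp4a14 was kept in 12 of 12, that for Cyp4a10 in 9 of 12 and that for Cyp4a32 in 2 of 12.

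**Figure D3:**
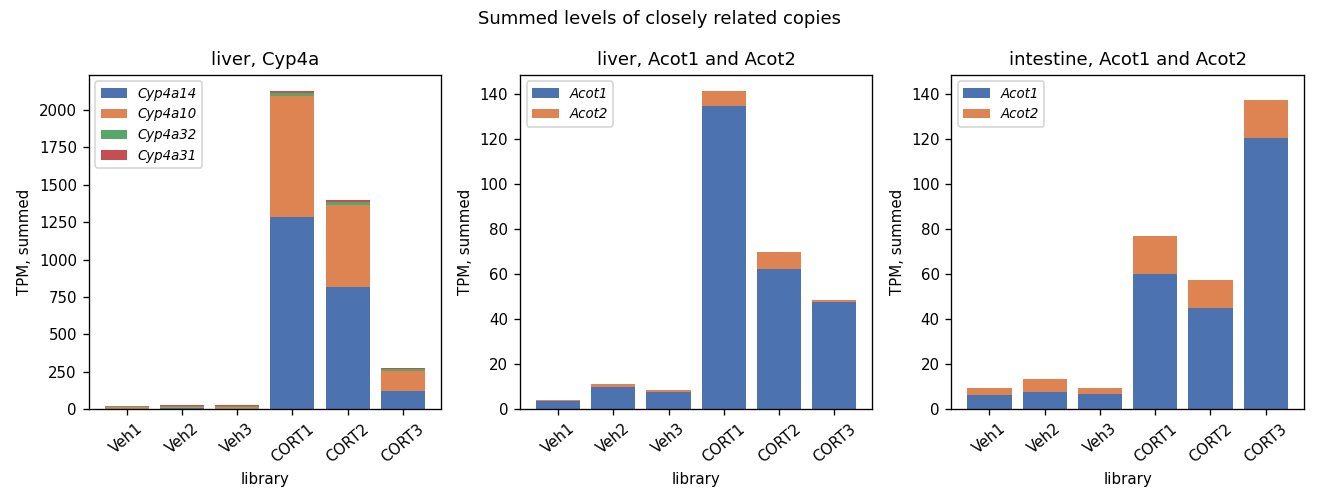
Summed TPM of closely related copies in each library, as stacked bars that start at 0: the 4 Cyp4a genes in liver, and Acot1 with Acot2 in liver and in intestine on a common scale. The Cyp4a sum is 20.5 to 28.7 TPM in the Veh livers and 273 to 2127 TPM in the CORT livers, and the Acot sum is 48.6 TPM or more in every CORT library of either tissue.

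The 12 libraries were also used to describe which genes vary together. Pearson's r of log2(TPM + 1), centred in each tissue, was 0.94 for Cyp4a10 and Cyp4a14, 0.97 for Cyp4a14 and Cyp4a31, 0.92 for Ppara and Acot1 and 0.88 for Acot1 and Acot2, and 0.55 for Ehhadh and Acot1. These values are descriptions: the points share the treatment contrast, and the copies share reads. Cyp4a14 was at 0 in every intestine library, so it had no variation there. Every r given for Cyp4a14, also in the search that follows, therefore rests on shared variation among the liver libraries and says nothing about intestine. Among 10499 genes searched, those most like Cyp4a14 were Crat (r = 0.98), Gpat3 (r = 0.98) and Anks1 (r = 0.97), and those most like Ppara were Cblb (r = 0.96), Tmem37 (r = 0.95) and Dnajc5 (r = 0.95). For Ehhadh they were P2ry1 (r = 0.90), 2410002F23Rik (r = 0.89) and Cpt1a (r = 0.89), and for Vnn1 they were Mmd (r = 0.95), Ddhd2 (r = 0.94) and Hsd17b4 (r = 0.94).

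The promoters were read where a sequence was at hand, 250 bases before to 50 after the start in RefSeq (GRCm38.p6), which was the case for Acot1, Acot2, Cyp4a32, Ehhadh and Ppara. The repeat that PPAR and RXR bind (AGGTCA, then 1 base of any kind, then AGGTCA again) occurred on either strand in 0 of these 5, and in 0.0396% of all 32851 promoters. With 1 mismatch the counts were 0 of 5 and 0.554%. The glucocorticoid receptor palindrome (AGAACA, then 3 bases of any kind, then TGTTCT) was in 0 of 5, against 0.00913% of all promoters, and with 1 mismatch in 0 of 5, against 0.164%. These letters were absent from this short window only, and no motif was searched beyond it.

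The rest of the pathway was described with 118 further genes in 7 lists, also chosen with earlier results of these data known. In liver 105 of them were tested, of which 15 were called higher (14.3%) and 3 lower (2.86%), with a median difference of 0.36, against 4.91% and 2.01% of all genes tested. In intestine 100 were tested, of which 13 were called higher (13.0%) and 1 lower (1.00%), with a median of 0.19, against 1.23% and 0.919% of all genes tested. The shares called lower were near those of all genes. Without liver CORT3, 31 of these genes were called higher in liver, in a fit that called 522 of all 11617 genes in either direction. Without Veh1, Veh2, Veh3, CORT1 or CORT2 instead, the counts were 6, 17, 9, 7 and 7. CORT3 is singled out for its low values of such genes, so the higher count without it is not a separate result. Leaving out intestine Veh2 and Veh3 leaves 1 Veh library, so no count from that fit is read here.

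**Figure D4:**
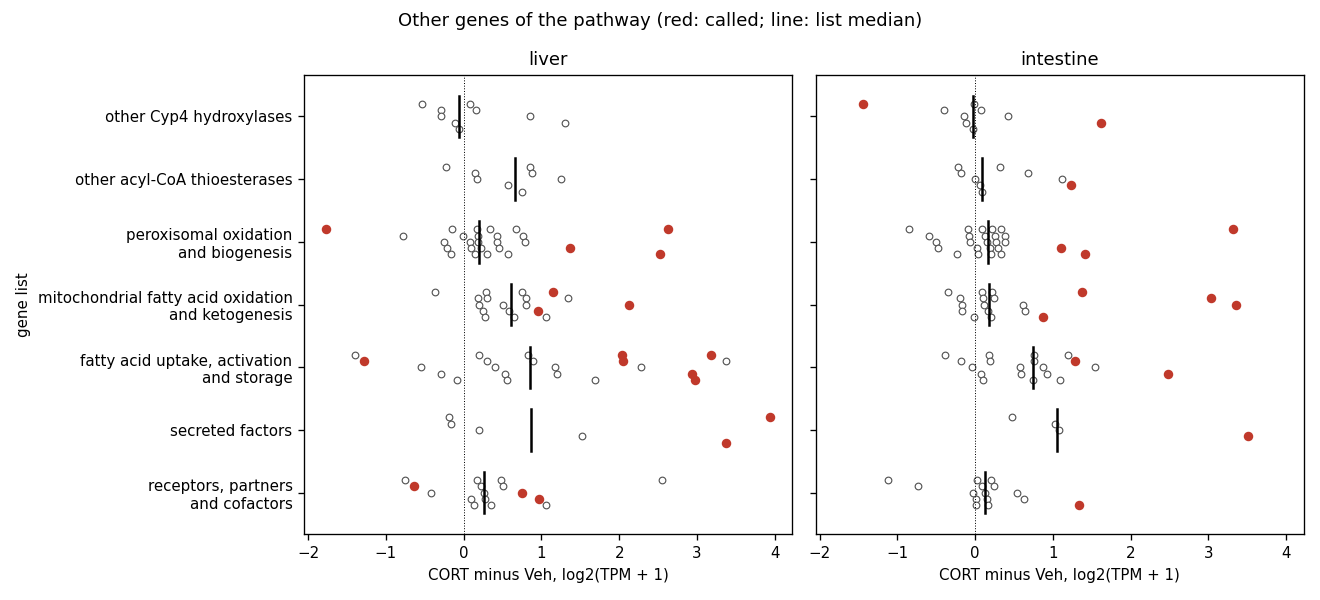
Difference between CORT and Veh on the log2(TPM + 1) scale for the other genes of the pathway in liver (left) and intestine (right), 1 point per gene tested, with called genes in red and a black line at the median of each list. Fatty acid uptake, activation and storage holds 5 called higher genes in liver, and peroxisomal oxidation and biogenesis holds 3 in each tissue.

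Of the 16 other Cyp4 hydroxylases listed, 9 were tested in liver, where limma called 0, with a median of -0.07, and 2, Cyp4b1 and Cyp4f17, were higher and 0 lower at an unadjusted p under 0.05. Both had CORT values wholly above the Veh values, with means of 5.06 ± 3.33 and 12.6 ± 2.29 TPM for Cyp4b1 and of 3.73 and 7.73 TPM for Cyp4f17 in Veh and CORT (SD, n = 3), and Cyp4f17 is named after its values were seen. Cyp4a12a and Cyp4a12b, the male-pattern Cyp4a genes of mouse liver, were at 70.4 ± 29.7 and 21.4 ± 5.29 TPM in Veh and 59.3 ± 26.8 and 14.8 ± 5.21 TPM in CORT (SD, n = 3), with differences of -0.29 and -0.54, and both were at 0 in intestine. They share 48.9% and 49.4% of their 50-base windows, and their sum was 91.8 ± 33.7 TPM in Veh and 74.1 ± 23.5 TPM in CORT (SD, n = 3). In intestine Cyp4b1 rose from 78.9 ± 15.7 to 243 ± 43.0 TPM (limma adjusted p = 0.0185), and Cyp4f16 fell from 172 ± 29.1 to 63.6 ± 17.0 TPM (limma adjusted p = 0.0310) (SD, n = 3). Without 1 library, Cyp4b1 was called in 3 of 6 fits and Cyp4f16 in 1. Cyp4f14 and Cyp4v3 had the highest means over the 6 libraries of each tissue, and neither was called.

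Among 11 other acyl-CoA thioesterases, 8 were tested in liver, where limma called 0, with 3 higher and 0 lower at an unadjusted p under 0.05 and a median of 0.66, and 9 in intestine, where 1 was called. Acot3 and Acot4, which lie near Acot1, were at 0.42 to 5.84 and 3.15 to 10.7 TPM in the Veh livers and at 0.58 to 8.98 and 4.19 to 11.99 TPM in the CORT livers, with differences of 0.75 and 0.57 that were not called. In intestine Acot4 was at 4.97 to 6.96 TPM in Veh and 8.55 to 11.7 TPM in CORT (difference 0.67, limma adjusted p = 0.0988), and Acot3 was below 1 TPM. Acot5 was at 0 to 0.28 TPM in liver, and in intestine at 0 to 0.11 TPM in Veh and 0.90 to 1.94 TPM in CORT (difference 1.12, limma adjusted p = 0.0778). Acot6 was called in intestine, at 0.85 ± 0.38 TPM in Veh and 3.31 ± 0.54 TPM in CORT (SD, n = 3), and it passed the filter only through its CORT level. Without 1 library it was called in 0 of 6 fits. Acot13 and Acot12 in liver and Acot13 and Acot7 in intestine had the highest means over the 6 libraries of a tissue and were not called.

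In the list of peroxisomal oxidation and biogenesis, 26 of 27 genes were tested in each tissue. In liver 3 rose and 1 fell, with a median of 0.20, and in intestine 3 rose, with a median of 0.17, and the 3 that were lower at an unadjusted p under 0.05 were not called. Pex11a, which drives peroxisome division, rose from 25.3 ± 4.80 to 156 ± 51.6 TPM in liver (limma adjusted p = 0.00597) and from 27.2 ± 3.80 to 59.5 ± 5.41 TPM in intestine (limma adjusted p = 0.0199) (SD, n = 3). Eci2, an enoyl-CoA isomerase, also rose in both, by 1.37 in liver (limma adjusted p = 0.0141) and 1.41 in intestine (limma adjusted p = 0.0117). Crat, which moves acyl groups to carnitine, rose by 2.63 in liver (limma adjusted p = 0.0196), and Nudt7, a hydrolase that breaks down coenzyme A, fell by 1.77 (limma adjusted p = 0.00844).

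Without 1 library, Pex11a, Eci2, Crat and Nudt7 were called in 6, 5, 2 and 6 of 6 fits in liver, and Pex11a, Eci2 and Acox2 in 2, 5 and 6 of 6 in intestine. Acox2, the oxidase of branched and bile acid chains, rose from 4.14 ± 1.32 to 49.5 ± 8.72 TPM in intestine (SD, n = 3, limma adjusted p = 0.00310). CORT3 was the lowest CORT liver library for 24 of these 26 genes. Scp2 and Phyh had the highest means of the list over the 6 libraries of each tissue and were not called.

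Of 18 mitochondrial oxidation and ketogenesis genes tested in each tissue, 3 were called higher in liver and 4 in intestine by limma, and 0 were lower in either, also at an unadjusted p under 0.05. The carnitine carriers Slc22a5 (plasma membrane) and Slc25a20 (mitochondrial) rose in both tissues, by 2.13 and 1.14 in liver (limma adjusted p = 0.00723 and 0.0428) and by 1.37 and 0.87 in intestine (limma adjusted p = 0.0310 and 0.0392). Cpt2 rose by 0.95 in liver (limma adjusted p = 0.0237). Slc22a5 in liver was called in all 6 fits without 1 library, and the other calls were mostly lost: Slc25a20 kept its call in 1 of 6 in either tissue, Slc22a5 in 1 of 6 in intestine and Cpt2 in 2 of 6. Cpt1a, the gate of mitochondrial import, was at 63.0 to 124 TPM in Veh and 105 to 204 TPM in CORT in liver (difference 0.80, limma adjusted p = 0.172) and differed by 0.16 in intestine.

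Pdk4, which shuts pyruvate out of oxidation, rose from 13.1 ± 4.86 to 112 ± 30.7 TPM in intestine (SD, n = 3, limma adjusted p = 0.00809), and was called in all 6 fits without 1 library. It was at 0.53 to 1.93 TPM in the Veh livers and 2.28 to 3.97 TPM in the CORT livers (difference 1.06, limma adjusted p = 0.0833). CORT3 was the lowest CORT liver library for 17 of the 18 genes. Ucp2 and Hadh in intestine and Acaa2 in liver, among those with the highest means over the 6 libraries of a tissue, were not called.

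Among 22 genes of fatty acid uptake, activation and storage tested in liver, 5 rose and 1 fell, with a median of 0.86. Plin5, a lipid droplet coat protein of oxidative tissues, rose from 16.4 ± 3.96 to 158 ± 40.4 TPM (SD, n = 3, limma adjusted p = 0.00178), and Plin4 from 0.47 ± 0.25 to 10.5 ± 1.76 TPM (SD, n = 3, limma adjusted p = 0.00143), though Plin4 passed the filter only through its CORT level. Cd36, a fatty acid transporter, rose by 2.94 (limma adjusted p = 0.00693), Mgll by 2.05 (limma adjusted p = 0.00492) and the lipase inhibitor G0s2 by 2.03 (limma adjusted p = 0.0261). Acsl3, an acyl-CoA synthetase, fell by 1.28 (limma adjusted p = 0.0436). In intestine 2 of 19 rose, with a median of 0.75: G0s2 by 2.48 (limma adjusted p = 0.00310) and Fabp4 by 1.28 (limma adjusted p = 0.0272). Without 1 library, Plin5, Plin4, Cd36 and Mgll were called in 6 of 6 fits in liver, G0s2 in 1 and Acsl3 in 2, and in intestine G0s2 was called in 6 and Fabp4 in 1. Fabp1 and Scd1 in liver and Fabp1 and Fabp2 in intestine had the highest means over the 6 libraries of a tissue and were not called.

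Of the 6 secreted factors, 6 were tested in liver with 2 called higher, and 4 in intestine with 1 called higher. In liver Apoa4, an apolipoprotein, rose from 122 ± 48.2 to 2362 ± 1667 TPM (SD, n = 3, limma adjusted p = 0.0239). Fgf21, a fasting hormone made by liver, was at 0.62, 3.49 and 0.34 TPM in Veh and at 26.7, 50.3 and 6.58 TPM in CORT (difference 3.37, limma adjusted p = 0.0434). In intestine Fgf21 was at 0 to 2.12 TPM in Veh and 0 in CORT and was not tested. Angptl4, an inhibitor of lipoprotein lipase, was at 4.37, 3.24 and 20.5 TPM in the Veh intestines and at 145, 72.7 and 65.5 TPM in the CORT intestines (difference 3.50, limma adjusted p = 0.0434). Apoa1 and Apoa2 in liver, and Apoa1 and Apoa4 in intestine, had the highest means over the 6 libraries of a tissue and were not called there. Without 1 library these calls were mostly lost: Fgf21 was called in 2 of 6 fits with differences of 2.76 to 4.14, Apoa4 in 2 of 6 with 3.39 to 4.79, and Angptl4 in intestine in 1 of 6 with 3.06 to 4.23.

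Among the receptors, partners and cofactors, 2 of 16 rose and 1 fell in liver and 1 of 15 rose in intestine. Among all genes tested, 4.91% were called higher and 2.01% lower in liver and 1.23% higher in intestine, so each of these counts is within 2 genes of that share. Creb3l3, a liver and gut transcription factor that acts with PPAR-alpha, rose in liver from 143 ± 11.5 to 282 ± 47.3 TPM (SD, n = 3, limma adjusted p = 0.0192) and the coactivator subunit Med1 rose by 0.75 (limma adjusted p = 0.0288). In intestine Nr0b2 rose by 1.33 (limma adjusted p = 0.0253). Without 1 library, Creb3l3 was called in 2 of 6 fits, Med1 in 1 and Nr0b2 in 3. The partner Rxra was at 85.8 ± 8.15 and 104 ± 2.77 TPM in liver and 47.7 ± 5.07 and 48.2 ± 6.79 TPM in intestine in Veh and CORT (SD, n = 3), and was not called in either.

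The other 2 PPAR receptors were lower on average in CORT than in Veh in intestine, without a call. Pparg was at 13.7, 23.6 and 23.5 TPM in the Veh intestines and at 8.87, 7.94 and 8.69 TPM in the CORT intestines (difference -1.12, limma adjusted p = 0.0540), and Ppard at 95.4, 81.5 and 96.2 TPM and at 64.2, 46.9 and 52.0 TPM (difference -0.74, limma adjusted p = 0.0654). Their CORT values lay wholly below the Veh values, as for 14.3% of all genes tested in intestine and 11.6% in liver. In liver Pparg and Ppard were at 4.16 ± 1.11 and 2.72 ± 0.75 TPM in Veh (SD, n = 3) and were not called, with differences of 0.36 and 0.48, and the coactivator Ppargc1a was not called in either tissue, with differences of 0.26 in liver and 0.17 in intestine.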

How the data were processed

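RNA of duodenum and liver was sequenced from 3 Veh and 3 CORT samples each (12 libraries, TruSeq kit, paired-end), with groups and replicate numbers from the labels. Per the authors, reads were cleaned with SeqPrep and Sickle and aligned with HISAT2, transcripts were assembled with StringTie, and RSEM gave the deposited unit, TPM, for each gene of each single library. The submitters' processing notes name the build GRCm39. Tool versions and the annotation are not given in the sources used here. RSEM divides reads that fit several copies by estimate. TPM fixes each library's total, so depth is unknown.

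From TPM, log2(TPM + 1) was fitted with limma 3.58.1 in R 4.3.3 (eBayes with a trend), each tissue alone with treatment as the only term, and both together with a treatment by tissue term. Genes with a mean under 1 TPM in every group were left out. All adjusted p-values are limma's, over all genes tested. The authors called DEGs with DESeq2 from counts, which were not used here. The fits were tested on simulated data. Sequence comparisons used GENCODE M21 and RefSeq tables of GRCm38, a different build from the files', so no coordinates are given. Promoters of Cyp4a10, Cyp4a14, Cyp4a31 and Vnn1 were not used here.

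The members and lists were chosen with earlier results of these data known. The text names all 9 members, fixed pathway genes, called genes of the lists (at most 5 per list, direction and tissue), the 2 genes per list and tissue with the highest mean over its 6 libraries, and the 3 genes most like Ppara, Ehhadh, Cyp4a14 and Vnn1, apart from a few list genes that enter the counts but are not reported here by name. Alternatives were a pseudocount of 0.1, no filter, a block for the replicate number, dropping 1 library at a time, no fold limit, unadjusted p, median-ratio scaling, summed copies, removal of acinar genes and 1 mismatch in motifs. Leaving out both libraries with acinar RNA was chosen after seeing the data.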

Additional observations from a re-analysis of the deposited data

Results flagged for a closer look

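The response to CORT differed between liver and intestine, by the treatment by tissue term of the limma fit, for 3 of the 9 genes. The difference, liver minus intestine on the log2(TPM + 1) scale, was 7.13 for Cyp4a14, 3.93 for Cyp4a10 and 1.67 for Cyp4a32. Cyp4a14 was at 0 in all intestine libraries, and Cyp4a32 was below 1 TPM in each of them, so their values largely restate the liver difference. For that reason the count of 3 is not read against the 3.61% called among all 14806 genes tested. With 1 library left out, the call was kept in 12 of 12 fits for Cyp4a14, 9 for Cyp4a10 and 2 for Cyp4a32.

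Among the other pathway genes the CORT minus Veh difference was higher in liver for Fgf21 (4.01), Plin5 (2.92), Crat (2.36), Plin4 (2.05), Mgll (1.95), Cyp4f16 (1.53), Pex11a (1.42) and Ppard (1.22). Fgf21 and Plin5 averaged under 1 TPM in both intestine groups and entered the fit only through liver, so their values largely restate the liver difference, and Cyp4f16 in liver was near that limit, at 1.41 and 1.45 TPM in Veh and CORT. The difference was higher in intestine for Acox2 (-3.13), Acsl3 (-2.47), Pdk4 (-1.97) and Nudt7 (-1.96). Fgf21, Crat, Pex11a and Cyp4f16 kept this call in 3, 2, 1 and 2 of the 12 fits that left out 1 library, and Pdk4 in 2, while Plin5, Plin4, Mgll, Acox2, Acsl3 and Nudt7 kept it in 12 and Ppard in 10.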

How the results depend on the processing

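The 9 members were called 4 times in liver (3 to 7 with 1 library left out, 7 without CORT3, 7 with unadjusted p), 3 times in intestine (1 to 2 with 1 library left out, 1 without the filter) and 3 times for the difference between tissues (1 to 4 with 1 library left out, 1 without the filter). Without both intestine libraries with acinar RNA limma called 0 of the 6 members tested, with 4 higher at an unadjusted p under 0.05. Correlations of same-numbered Veh and CORT samples were -0.125 to 0.036 in liver and -0.001 to 0.079 in intestine. Those of differently numbered samples were -0.146 to 0.135 in liver and -0.085 to 0.037 in intestine. These values showed no pairing by replicate number, but with 3 samples per group they cannot exclude one. With the replicate number as a block, 3 members were called in liver, 2 in intestine and 1 for the difference, and among all genes 307 against 810 in liver and 62 against 292 in intestine. Of the other pathway genes, 15 were called higher in liver (7 without the filter, 35 with unadjusted p, 6 to 31 with 1 library left out) and 3 lower (1 without the filter, 1 with the block, 5 with unadjusted p, 1 to 2 with 1 library left out). In intestine 13 were called higher (5 without the filter, 4 with the block, 29 with unadjusted p, 6 to 9 with 1 library left out, 0 without both acinar libraries) and 1 lower (2 with a pseudocount of 0.1 or with acinar genes removed, 5 with unadjusted p, and by limma 0 without the filter, with the block or without both acinar libraries, and 0 to 1 with 1 library left out).

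Among single genes, 1000 of the alternative values kept their direction and side of the threshold, 252 lost the call, 26 gained it and 16 changed sign, none of these from a called value. In intestine Ehhadh was -0.022 with acinar genes removed and -0.092 to 0.11 with 1 library left out, Rxra -0.031 with acinar genes removed, -0.067 without both acinar libraries and -0.080 to 0.13 with 1 library left out, Ppargc1a -0.13 and Vnn1 -0.066 without both acinar libraries, and Ppargc1a -0.040 to 0.32 with 1 library left out. With 1 library left out, liver Cyp4a12a was -0.56 to 0.15, and the difference between tissues was -0.24 to 0.59 for Acot1 and -0.85 to 0.16 for Acot2. The cause of these changes was not tested. Depth is unknown for TPM, and 3 libraries per group limit the precision.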
